A study of Homo sapiens with 16 samples.

Results

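The methionine cycle and the transsulfuration route are represented here by 7 listed genes: MAT2A, MAT2B, AHCY, MTR, MTRR, CBS and CTH. They were given as a list of names and were looked up by Ensembl identifier among the 62754 genes of the count table. All 7 were found, and all 7 were among the 18549 genes with enough counts to be tested. RNA came from LNCaP, an established line of human prostate cancer cells. Of the 4 groups, with 4 libraries each, WT Vehicle and WT GCN2iB were unedited cells given DMSO or 5 µM GCN2iB, and p53 KO Vehicle and p53 KO GCN2iB were cells edited by CRISPR and given the same agents, in every case for 48 h. GCN2iB inhibits the kinase GCN2, which senses amino acid shortage and raises translation of the transcription factor ATF4. The labels do not say whether the knockout line is a single clone or a pool, nor whether replicates came from separate cultures. The p-values therefore reflect only how far these libraries differ, which may be technical.

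In the methionine cycle, methionine and ATP are joined to S-adenosylmethionine (SAM), the methyl donor of most cellular methylation. Methyl transfer leaves S-adenosylhomocysteine, which is split to homocysteine. Homocysteine is either methylated back to methionine with a folate-borne methyl group and a cobalamin cofactor, or condensed with serine in transsulfuration, which ends in cysteine. CTH, like many genes of amino acid supply, is known as a target of ATF4.

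CTH showed the largest decrease with GCN2iB among the 7 transcripts, in both genotypes, and smaller decreases of MAT2A and MTRR were called in both. Of 18 alternative fits each, 6 lost the MAT2A call in WT and 9 the MTRR call in p53 KO cells. AHCY fell with GCN2iB in WT cells and was lower in p53 KO than in WT cells under vehicle. No change of MAT2B or MTR was called in any comparison. Here a gene is called when its Benjamini-Hochberg adjusted p from edgeR's quasi-likelihood test, over all 18549 genes, is under 0.05.

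The sequences before the annotated starts of 3 members are shown because they contrast the member with the largest response (CTH), a member with a smaller one (MAT2A) and a member with no called change (MTR). Each line gives the 250 bases upstream of the start from RefSeq on GRCh38.p14, 5′ to 3′ on the plus strand, which is the gene's strand. Capitals mark TGACGT, a cyclic AMP response element core, and CCAAT, the box bound by NF-Y, which reads ATTGG where it lies on the other strand.
CTH chr1:70411018-70411267: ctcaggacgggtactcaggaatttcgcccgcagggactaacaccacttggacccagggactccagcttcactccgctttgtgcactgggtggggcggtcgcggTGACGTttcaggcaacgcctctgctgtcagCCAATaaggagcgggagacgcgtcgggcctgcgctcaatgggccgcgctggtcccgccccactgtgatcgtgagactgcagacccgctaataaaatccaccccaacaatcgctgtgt
MAT2A chr2:85538918-85539167: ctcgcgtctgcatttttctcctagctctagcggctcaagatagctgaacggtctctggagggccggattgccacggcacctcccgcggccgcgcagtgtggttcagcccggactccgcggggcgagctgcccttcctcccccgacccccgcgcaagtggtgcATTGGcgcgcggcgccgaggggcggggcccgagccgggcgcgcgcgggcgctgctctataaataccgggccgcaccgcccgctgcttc
MTR chr1:236795031-236795280: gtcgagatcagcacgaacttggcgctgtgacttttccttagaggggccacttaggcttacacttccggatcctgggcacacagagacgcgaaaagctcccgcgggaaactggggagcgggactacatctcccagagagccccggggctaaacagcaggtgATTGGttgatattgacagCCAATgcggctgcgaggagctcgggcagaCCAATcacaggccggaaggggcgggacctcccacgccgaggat
CTH had TGACGT at 147 bases and CCAAT at 117 bases before its start. MAT2A had 1 CCAAT match, 88 bases before its start, and MTR had 3. The search covered both strands of 300-base windows, from 250 bases before to 50 after a start, and used 4 motifs: TGATGNAA, a core of the element bound by ATF4 with C/EBP partners, the TGACGT core, the CCAAT box, and the E-box letters CACGTG. RefSeq windows were matched for 6 of the 7 members, 12 windows in all, since several genes have more than 1 start. TGATGNAA was in 0 of the 12 windows, against 3.62% of 35116 windows of all genes. It was present in the windows of CHAC1 and ASNS, at 209 and 68 bases before the start, the latter in 1 of 2 windows, and in none of the windows of ATF4 (2), TRIB3 (3) or PSAT1 (1), which also fell with GCN2iB. TGACGT was in 1 of 12 (7.98% of all windows), CCAAT in 7 of 12 (34.6%) and CACGTG in 0 of 12 (7.26%). The 12 windows are not all separate: those of MTR share 289 bases and each holds the same 3 CCAAT matches. The motifs do not overlap one another in the printed stretches. A match is a description of these letters, and no match says only that they are not in the window.

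Library totals ranged from 17418072 to 39915685 counts. CDKN1A, a p53 target that encodes the cell cycle inhibitor p21, averaged 274.6 ± 21.1 CPM (counts scaled to 1 common library total with TMM factors; SD, n = 4) in WT Vehicle, 464.2 ± 60.1 in WT GCN2iB, 37.5 ± 3.73 in p53 KO Vehicle and 42.9 ± 5.97 in p53 KO GCN2iB. Some libraries stood apart from their groups. On the first principal component, which carried 34.4% of the variance and separated the genotypes, replicate 4 of WT GCN2iB lay at -18.26, against -33.61 to -31.47 for the others of its group and 26.66 to 32.47 for the p53 KO libraries. Its CDKN1A was 374.9 CPM, against 482.9 to 501.1 in the other 3. The members' called changes that use WT GCN2iB, and the counts over related genes in WT cells, are therefore also given without WT GCN2iB replicate 4. The second component (16.4% of the variance) separated the treatments. There p53 KO GCN2iB replicate 4 lay at -30.55, against -13.87 to -10.92 for the others of its group. Its CDKN1A was 51.65 CPM, against 38.54 to 41.52. WT Vehicle replicate 1 lay at 35.15, against 10.82 to 18.73 for the others of its group. Fits without these libraries are given for some results only. All 8 markers of luminal prostate cells were well detected, among them KLK3, prostate-specific antigen (1279 to 1886 CPM over the 16 libraries). Even so, 6 of the 8 fell with GCN2iB in WT (5 without WT GCN2iB replicate 4) and 5 in p53 KO cells. Over all tested genes, 13.6% were called lower with GCN2iB in WT and 8.71% in p53 KO cells. Of 8 markers of other cell types, PTPRC, CD68, PECAM1, KRT5, TP63 and CHGA stayed at or below 0.253 CPM in every library and COL1A2 at or below 0.81. COL1A1 reached 23.8 CPM, so the 8 together summed to 19.6 to 24.2 CPM in WT Vehicle, 16.1 to 18.7 in WT GCN2iB, 16.4 to 19.0 in p53 KO Vehicle and 12.0 to 14.6 in p53 KO GCN2iB. COL1A1 itself fell with GCN2iB in both genotypes, and the part of its source in the results was not tested. EIF2AK4, which encodes GCN2, averaged 138.2 ± 10.2 CPM in WT Vehicle, 112.0 ± 5.21 in WT GCN2iB, 129.4 ± 6.99 in p53 KO Vehicle and 117.0 ± 14.9 in p53 KO GCN2iB.

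**Figure D1:**
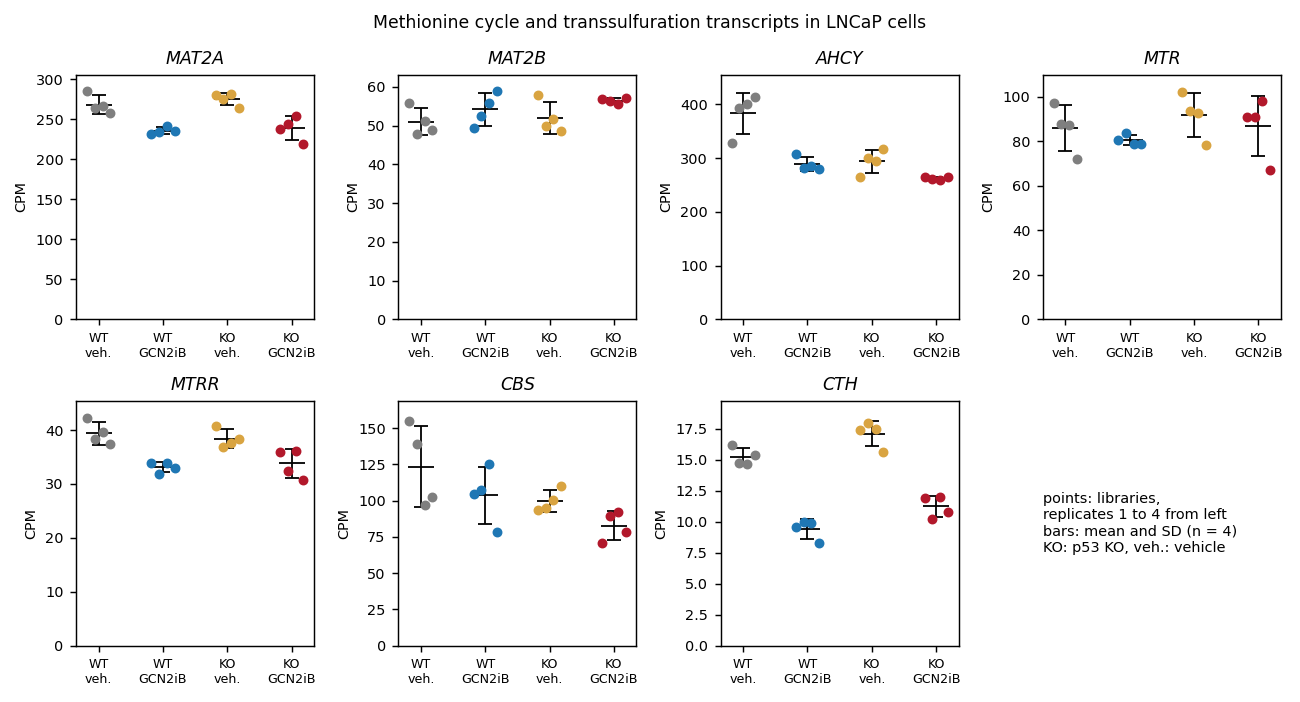
CPM (TMM-scaled, vertical axes from 0) of each of the 7 transcripts in the 16 libraries, by group. Points are libraries and bars are the mean and SD of 4. The 4 CTH values of each GCN2iB group lie below all 4 of the matching vehicle group, whereas those of MTR and MAT2B overlap.

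MAT2A, on chromosome 2 (85539165 to 85545280, plus strand, GRCh38), encodes the catalytic subunit of the methionine adenosyltransferase that makes SAM outside the liver. In order of replicate it measured 285.1, 263.8, 266.0 and 257.4 CPM in WT Vehicle and 231.2, 234.5, 241.4 and 234.8 in WT GCN2iB. The p53 KO Vehicle libraries gave 279.6, 275.1, 281.8 and 264.0 CPM, and those of p53 KO GCN2iB 237.6, 244.2, 254.0 and 218.4. Every GCN2iB library lay below every vehicle library of the same genotype. The log2 change with GCN2iB was -0.19 ± 0.06 (SE) in WT (edgeR's quasi-likelihood test, adjusted p = 0.0158) and -0.21 ± 0.06 in p53 KO cells (adjusted p = 0.0102), a 1.14-fold and a 1.15-fold decrease. The call in WT did not hold when any 1 of 5 libraries was left out: WT Vehicle replicate 1 (adjusted p = 0.0787) or 3 (0.0576), or WT GCN2iB replicate 1 (0.0564), 2 (0.0578) or 4 (0.0610, log2 change -0.17). It was also lost with no count filter (-0.17, adjusted p = 0.0983), and with GC and length trends removed the change was -0.11 (adjusted p = 0.0381). The exons of MAT2A overlap those of GGCX on the other strand, whose counts were 21.1% of those of MAT2A. Whether counting used strand is not given in the sources used here, and GGCX itself had log2 changes of 0.12 (adjusted p = 0.129) and 0.06 (adjusted p = 0.464).

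MAT2B, on chromosome 5 (163503114 to 163519336, plus strand), encodes the regulatory subunit that binds the MAT2A enzyme. Its level averaged 51.0 ± 3.53 CPM in WT Vehicle, 54.2 ± 4.18 in WT GCN2iB, 52.0 ± 4.14 in p53 KO Vehicle and 56.5 ± 0.726 in p53 KO GCN2iB (SD, n = 4). Vehicle and GCN2iB libraries overlapped in both genotypes. The log2 change was 0.09 (95% interval -0.05 to 0.23, adjusted p = 0.375) in WT and 0.12 (-0.02 to 0.26, adjusted p = 0.247) in p53 KO cells. After removal of trends with GC content and length, an alternative chosen after seeing the data, MAT2B was called higher in both (0.20, adjusted p = 0.00207, and 0.13, adjusted p = 0.0497). Without WT GCN2iB replicate 4 the WT change was 0.06 (adjusted p = 0.605). The ratio of MAT2A to MAT2B counts does not depend on how libraries are scaled, and it was lower with GCN2iB in both genotypes. It ranged from 5.10 to 5.50 in WT Vehicle and from 3.98 to 4.68 in WT GCN2iB. The p53 KO libraries ranged from 4.83 to 5.52 under vehicle and from 3.83 to 4.58 under GCN2iB. In both genotypes the ranges were separate, and the ratio was not put to a test.

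AHCY, on chromosome 20 (34280268 to 34311802, minus strand), encodes the hydrolase that clears S-adenosylhomocysteine, a product that inhibits methyltransferases. Its libraries gave 328.0, 393.3, 400.0 and 412.9 CPM in WT Vehicle and 308.3, 281.0, 286.0 and 280.0 in WT GCN2iB. Those of p53 KO cells gave 264.0, 299.4, 295.0 and 316.7 CPM under vehicle and 263.9, 260.7, 259.2 and 264.8 under GCN2iB. WT Vehicle was the high group: its lowest library lay above every library of the other 3 groups. In WT cells AHCY fell by 0.41 ± 0.07 on the log2 scale, 1.33-fold (edgeR, adjusted p = 0.000124; without WT GCN2iB replicate 4, -0.38, adjusted p = 0.00149). In p53 KO cells the log2 change was -0.16 ± 0.07 (adjusted p = 0.0917), and the groups overlapped. Leaving out p53 KO Vehicle replicate 1, the lowest of its group, gave -0.22 with an adjusted p of 0.0333, and the fit with a replicate block gave -0.16 with 0.0394. The change was also called with library totals (-0.23, adjusted p = 0.0134), with a mean of at least 50 counts as the filter (-0.19, adjusted p = 0.0384) and with GC and length trends removed (-0.20, adjusted p = 0.00204). The difference between both responses was 0.25 (95% interval 0.05 to 0.44), with an adjusted p = 0.434 (edgeR's quasi-likelihood test; 0.0173 before adjustment), so a difference between the genotypes in this response was not called (without WT GCN2iB replicate 4, 0.21, adjusted p = 0.641). The 6 processed copies of AHCY in the table held at most 0.008% of its counts each.

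MTR, on chromosome 1 (236795281 to 236903981, plus strand), encodes methionine synthase, which uses cobalamin to methylate homocysteine. It averaged 86.1 ± 10.5 CPM in WT Vehicle, 80.5 ± 2.22 in WT GCN2iB, 91.9 ± 9.79 in p53 KO Vehicle and 86.8 ± 13.5 in p53 KO GCN2iB. All groups overlapped, and replicate 4 held the lowest value in each of the 4. The log2 change with GCN2iB was -0.09 (95% interval -0.30 to 0.11, adjusted p = 0.539) in WT and -0.08 (-0.29 to 0.12, adjusted p = 0.605) in p53 KO cells. Without p53 KO GCN2iB replicate 4 the latter was 0.02, and without WT GCN2iB replicate 4 the former was -0.07 (adjusted p = 0.735).

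MTRR, on chromosome 5 (7851186 to 7906025, plus strand), encodes the reductase that restores the cobalamin of methionine synthase. It measured 42.3, 38.3, 39.7 and 37.4 CPM in WT Vehicle and 33.8, 31.9, 33.9 and 32.9 in WT GCN2iB. For p53 KO cells the values were 40.8, 36.9, 37.6 and 38.4 CPM under vehicle and 35.8, 32.4, 36.2 and 30.8 under GCN2iB. Treated and vehicle libraries did not overlap in either genotype. The log2 change was -0.25 ± 0.07 in WT (edgeR, adjusted p = 0.00745; without WT GCN2iB replicate 4, -0.23, adjusted p = 0.0318) and -0.19 ± 0.07 in p53 KO cells (adjusted p = 0.0455). The p53 KO call did not hold without any 1 of the p53 KO Vehicle replicates (1 to 4: adjusted p = 0.119, 0.0566, 0.0734 and 0.0717) or without p53 KO GCN2iB replicate 2 (0.128) or 4 (0.146). It was also lost with no count filter (0.125) and in a fit of only the groups compared (0.0967). With replicate 4 of GCN2iB left out in both genotypes it was lost as well (0.152). MTRR shares exon positions with FASTKD3 on the other strand, whose counts were 24.9% of its own and whose log2 changes were -0.22 (adjusted p = 0.0785) and -0.08 (adjusted p = 0.602).

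CBS, on chromosome 21 (43053191 to 43076943, minus strand), encodes cystathionine beta-synthase, which joins homocysteine to serine and commits it to transsulfuration. Its libraries were the most scattered of the 7 genes in the WT groups: 155.0, 138.8, 97.3 and 102.6 CPM in WT Vehicle and 104.2, 107.0, 125.5 and 78.1 in WT GCN2iB. The p53 KO values were 93.4, 95.2, 100.2 and 110.2 CPM under vehicle and 71.0, 89.7, 92.2 and 78.4 under GCN2iB. The coefficient of variation was 22.7% in WT Vehicle, where replicates 1 and 2 were high and 3 and 4 low, and 7.54% in p53 KO Vehicle. With GCN2iB the log2 change was -0.25 ± 0.15 in WT (adjusted p = 0.25) and -0.27 ± 0.15 in p53 KO cells (adjusted p = 0.231). The p53 KO groups did not overlap, yet the difference was not called, and the 95% interval ran from -0.59 to 0.05. Of 19 alternatives, 1 did call this p53 KO change. Without WT GCN2iB replicate 4, the lowest CBS value of its group, the WT change was -0.12 (adjusted p = 0.6). CBSL, a near-identical copy on the same chromosome (6444869 to 6468040, minus strand), averaged 2.76 to 3.77 CPM over the groups. Reads of the pair can be split or lost in counting, so the level of CBS is uncertain. With the counts of CBS and CBSL summed, the log2 change with GCN2iB was -0.24 in WT and -0.26 in p53 KO cells, neither called.

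CTH, on chromosome 1 (70411218 to 70439851, plus strand), encodes cystathionine gamma-lyase, which releases cysteine from cystathionine. Its libraries gave 16.2, 14.8, 14.7 and 15.4 CPM in WT Vehicle and 9.56, 9.95, 9.92 and 8.27 in WT GCN2iB. The p53 KO libraries gave 17.4, 17.95, 17.5 and 15.6 CPM under vehicle and 12.0, 10.2, 12.0 and 10.8 under GCN2iB. Every treated library lay below every vehicle library, across genotypes as well. The decrease was 1.62-fold in WT (log2 change -0.69 ± 0.08, edgeR, adjusted p = 2.42e-06) and 1.53-fold in p53 KO cells (-0.61 ± 0.08, adjusted p = 1.21e-05). Both calls held in all 18 alternatives run for each, and without WT GCN2iB replicate 4 the WT change was -0.62 (adjusted p = 3.05e-05). In bulk RNA, fewer cells with the transcript and less of it per cell cannot be told apart. The ratio of CBS to CTH counts averaged 8.07 ± 1.64 in WT Vehicle, 10.9 ± 1.32 in WT GCN2iB, 5.86 ± 0.816 in p53 KO Vehicle and 7.42 ± 1.18 in p53 KO GCN2iB, and vehicle and treated ranges overlapped in both genotypes.

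**Figure D2:**
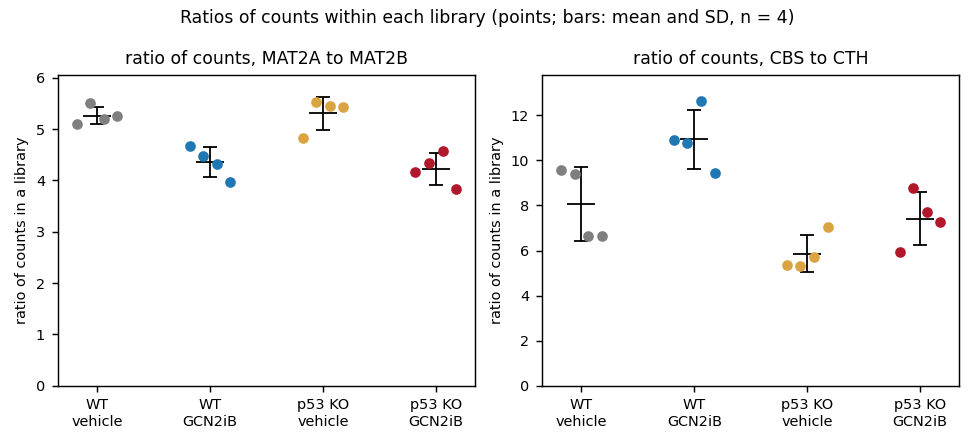
Ratio of counts within each library (vertical axes from 0) of MAT2A to MAT2B and of CBS to CTH, by group. Points are libraries and bars are the mean and SD of 4. The MAT2A to MAT2B ratios of the GCN2iB libraries lie at 4.68 or below and those of the vehicle libraries at 4.83 or above.

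Counted together, 4 of the 7 members fell with GCN2iB in WT cells (AHCY, CTH, MAT2A and MTRR) and 0 rose, and without WT GCN2iB replicate 4 there were 3, since MAT2A was not called. Over all tested genes 25.2% were called there, 13.6% as lower and 11.6% as higher. The same 4 had no overlap between WT Vehicle and WT GCN2iB, an outcome found as a decrease in 14.1% of tested genes. In p53 KO cells 3 of 7 fell (CTH, MAT2A and MTRR) and 0 rose, where 20.1% of tested genes were called, 8.71% as lower and 11.4% as higher. That split, 2119 genes higher and 1615 lower, became 1402 higher and 2670 lower with library totals as the scaling. With CBS, 4 members were lower without overlap, against 10.0% of tested genes. The median log2 change of the members was -0.25 in WT and -0.19 in p53 KO cells, beside -0.03 and -0.01 over all tested genes. For the difference between both responses 0 of 7 were called by edgeR's quasi-likelihood test, by DESeq2 or by limma voom, 1 (AHCY) had an unadjusted p under 0.05, and 0.00539% of tested genes were called. That 1 gene is SESN2, a leucine sensor of the mTORC1 pathway. The smallest adjusted p after AHCY was 0.872. For CTH the difference was 0.08 (95% interval -0.16 to 0.32; 0.01 without WT GCN2iB replicate 4) and for MAT2A -0.02 (-0.18 to 0.14), so larger differences than these estimates lie within the intervals.

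**Figure D3:**
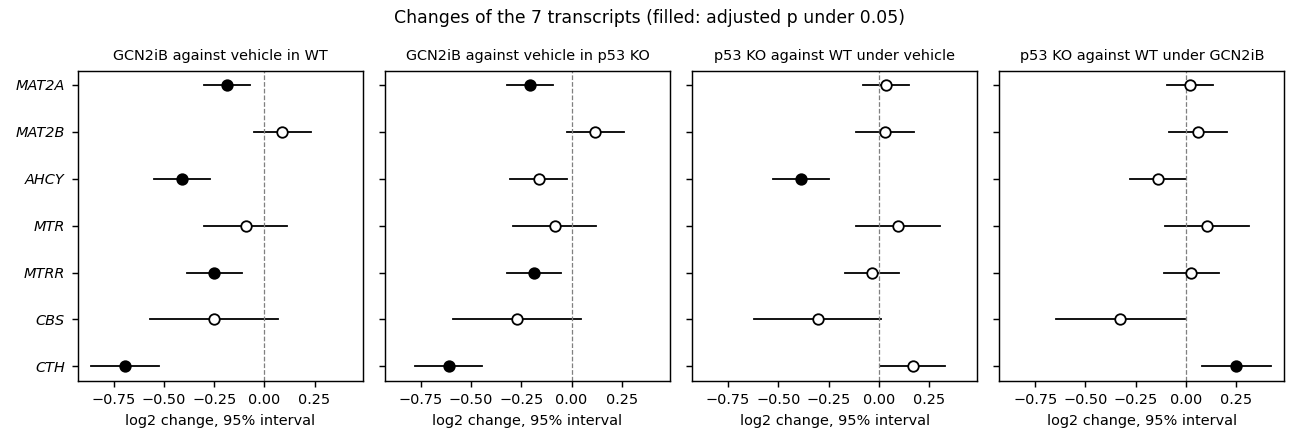
Log2 change with its 95% interval (horizontal axes) for the 7 transcripts in 4 comparisons, filled where the adjusted p is under 0.05. In the GCN2iB comparisons CTH has the lowest estimate, at -0.69 and -0.61. AHCY is the 1 filled point for p53 KO against WT under vehicle.

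Between the genotypes under vehicle, AHCY was the 1 member called. It was 1.31-fold lower in p53 KO than in WT cells (log2 change -0.39 ± 0.07, edgeR, adjusted p = 0.000182), its groups did not overlap, and the call held in all 18 alternatives. Of all tested genes 21.7% were called in that comparison, 12.1% as lower and 9.63% as higher, and 12.2% were lower without overlap. The split of 1787 higher and 2238 lower genes became 2461 and 1593 with library totals as the scaling. CTH was at 0.17 (95% interval 0.00 to 0.33, adjusted p = 0.14) and CBS at -0.30 (-0.62 to 0.01, adjusted p = 0.17). MAT2A, MAT2B, MTR and MTRR had log2 differences from -0.03 to 0.10, with adjusted p from 0.555 to 0.806. Under GCN2iB the 1 member called was CTH, 0.25 ± 0.08 higher on the log2 scale in p53 KO cells (edgeR, adjusted p = 0.032), where 23.9% of tested genes were called, 12.7% as higher and 11.2% as lower. It also had no overlap between the groups, found as an increase in 13.6% of tested genes. This CTH call was lost in 10 of 18 alternatives, 6 of them with a single library left out. Those libraries are WT GCN2iB replicates 1 to 4 (adjusted p = 0.0703, 0.0563, 0.0612 and 0.178) and p53 KO GCN2iB replicates 1 (0.153) and 3 (0.124). AHCY was lower in p53 KO without overlap (11.5% of tested genes) at -0.14 ± 0.07, adjusted p = 0.143 (without WT GCN2iB replicate 4, -0.18, adjusted p = 0.104). It was called in a fit of only the groups compared (-0.16, adjusted p = 0.0451) and with GC and length trends removed (-0.13, adjusted p = 0.0336). CBS was at -0.33 ± 0.15 (adjusted p = 0.133), and without WT GCN2iB replicate 4 at -0.46 (adjusted p = 0.0183).

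With both knockout and inhibitor, set against WT Vehicle, 5 of 7 members were lower and 0 higher, where 37.0% of tested genes were called, 18.5% as lower and 18.5% as higher. The same 5 had no overlap (16.2% of tested genes as lower). This comparison shares its WT Vehicle libraries with both the WT GCN2iB and the vehicle genotype comparisons. Alternatives aside, CBS was called here and in none of the other comparisons, at a log2 change of -0.58 ± 0.15 (edgeR, adjusted p = 0.00669). Side by side, its estimates were -0.25 for GCN2iB in WT cells and -0.30 for p53 KO under vehicle. AHCY was at -0.55 ± 0.07 (adjusted p = 1.07e-06), beside -0.41 and -0.39. CTH was at -0.44 (adjusted p = 0.000182), beside -0.69 and 0.17. MTRR was at -0.22 (adjusted p = 0.0105) and MAT2A at -0.17 (adjusted p = 0.0198). The MAT2A call was lost in 4 of 18 alternatives, with adjusted p up to 0.0739. Among them were the fits without p53 KO GCN2iB replicate 4 (adjusted p = 0.0689), with no count filter (0.0628) and of only the groups compared (0.0534). MAT2B was at 0.15 (adjusted p = 0.098). It was called higher in 2 of 18 alternatives (lowest adjusted p = 0.00924), among them the fit without WT Vehicle replicate 1 (0.18, adjusted p = 0.0469). MTR was at 0.01 (adjusted p = 0.94).

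Between genes, levels were compared as CPM per kilobase of merged exons. AHCY stood highest in every group, from 67.3 ± 0.682 in p53 KO GCN2iB to 98.5 ± 9.73 in WT Vehicle. MAT2A came next, at 52.5 to 61.3 over the group means, then CBS (12.2 to 18.2), MAT2B (9.89 to 11.0) and MTR (7.08 to 8.08). CTH and MTRR were the lowest pair, and their order depended on treatment. Under vehicle CTH was at 6.32 ± 0.292 in WT and 7.09 ± 0.426 in p53 KO cells, above MTRR at 6.07 ± 0.325 and 5.91 ± 0.258. Under GCN2iB CTH was at 3.91 ± 0.327 and 4.65 ± 0.363, below MTRR at 5.10 ± 0.142 and 5.20 ± 0.405. In WT Vehicle the CTH and MTRR means differed by less than 1 SD of either. CBS (12.2 ± 1.46) and MAT2B (11.0 ± 0.141) differed by less than the SD of CBS in p53 KO GCN2iB.

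Around the 7 genes, 8 lists of related genes were read for the number called. They were written from general knowledge, but chosen with earlier results of these data known. Beside the counts of each list, 11.6% of all tested genes were called higher and 13.6% lower with GCN2iB in WT. In p53 KO cells 11.4% were called higher and 8.71% lower. The median log2 changes over all tested genes were -0.03 in WT and -0.01 in p53 KO cells. Over the 8 lists and the ATF4, p53 target and marker lists, 56 genes were called in WT with GCN2iB. Of these, 48 were also called without WT GCN2iB replicate 4 and 0 of the 56 changed sign. Among the 8 related lists, the methionine and cystine carriers showed the largest decreases. Of 9 tested, 7 fell and 0 rose in each genotype, with medians of -0.53 in WT and -0.48 in p53 KO cells, and 7 fell in WT without WT GCN2iB replicate 4. SLC7A5, the light chain of the LAT1 methionine and leucine carrier, went from 17.2 to 4.28 CPM in WT (log2 change -1.999, adjusted p = 2.07e-13) and from 20.2 to 7.96 in p53 KO cells (-1.35, adjusted p = 1.53e-10). SLC7A11, the cystine importer, fell 3.61-fold and 2.46-fold, and SLC1A5, a glutamine carrier, 2.54-fold and 2.30-fold. SLC7A5 was higher in p53 KO than in WT cells under GCN2iB (log2 difference 0.89, adjusted p = 2.1e-07; without WT GCN2iB replicate 4, 0.94, adjusted p = 2.69e-07). The difference between both SLC7A5 responses was 0.65 (edgeR, adjusted p = 0.0526), just short of a call, and no gene of these 8 lists was called there. It was called without WT GCN2iB replicate 1 (adjusted p = 0.0408) or 4 (0.71, adjusted p = 0.0369), by DESeq2 (adjusted p = 0.00324), and with no count filter, the replicate block or GC and length trends removed (adjusted p = 0.0198, 0.0119 and 0.0232). Under the last 3 of these the difference between the SLC7A11 responses was called as well (0.54, 0.54 and 0.47).

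Folate enzymes that bring the methyl group to methionine synthase fell in part. In WT cells 6 of 10 fell and 1 rose (median -0.31), and in p53 KO cells 3 fell and 2 rose (median -0.21). Mitochondrial enzymes led: MTHFD2 fell by 0.72 ± 0.06 on the log2 scale in WT (adjusted p = 5.14e-09) and by 0.51 ± 0.06 in p53 KO cells (adjusted p = 1.13e-06). MTHFD1L fell by 0.45 and 0.33, and SHMT2 by 0.41 and 0.33. SHMT1, the cytosolic serine hydroxymethyltransferase, rose by 0.27 and 0.33. Without WT GCN2iB replicate 4, 4 of the 10 were called lower in WT.

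Genes of cobalamin uptake and handling, which serve methionine synthase, went both ways. Of 12 tested, 5 rose and 3 fell in WT (4 and 0 without WT GCN2iB replicate 4) and 5 rose and 1 fell in p53 KO cells. MMACHC, which strips the upper ligand from cobalamin, rose by 0.38 ± 0.06 in WT (adjusted p = 5.36e-05) and by 0.48 ± 0.06 in p53 KO cells (adjusted p = 3.83e-06). HCFC1 and ZNF143, transcription regulators of MMACHC, rose by 0.47 and 0.22 in WT and by 0.24 and 0.38 in p53 KO cells. Among the fits with 1 p53 KO library left out, the p53 KO call of HCFC1 (adjusted p = 0.0482) held only without p53 KO GCN2iB replicate 4. It was lost without p53 KO Vehicle replicates 1 to 4 (0.144, 0.0673, 0.105 and 0.0755) and p53 KO GCN2iB replicates 1 to 3 (0.149, 0.143 and 0.0895). It was also lost with DESeq2 size factors (0.055), library totals (0.18), a mean of at least 50 counts (0.0765), limma voom (0.0562) or only the groups compared (0.0552). LMBRD1, of lysosomal cobalamin export, fell by 0.24 and 0.36, the former not called without WT Vehicle replicate 1 (adjusted p = 0.0568) or WT GCN2iB replicate 4 (0.0778). MMADHC, which hands cobalamin on to its enzymes, fell by 0.23 in WT cells (adjusted p = 0.0093) and was at -0.06 in p53 KO cells (adjusted p = 0.513). Its WT call was lost without WT Vehicle replicate 3 (0.0501) or WT GCN2iB replicate 4 (0.0577). The number of rising genes was not stable: with library totals as the scaling it was 3 in each genotype. It was 3 in WT without WT GCN2iB replicate 2. In p53 KO cells it was 3 without p53 KO Vehicle replicate 1 or 2 or p53 KO GCN2iB replicate 2, and 2 without p53 KO Vehicle replicate 3.

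Of 5 genes of MAT2A mRNA control and SAM sensing, 3 rose and 1 fell in WT, and 3 rose and 0 fell in p53 KO cells. Without WT GCN2iB replicate 4 the WT counts were 3 and 0. METTL16, which methylates MAT2A transcripts, rose by 0.22 ± 0.05 in WT (edgeR, adjusted p = 0.00456) and by 0.33 ± 0.05 in p53 KO cells (adjusted p = 0.000101). NUDT21, of the 3′ end cleavage complex, rose by 0.38 and 0.35, and YTHDC1, a reader of methylated adenosine, by 0.22 and 0.26. The SAM sensor SAMTOR fell by 0.25 in WT (adjusted p = 0.0409) and was at -0.19 in p53 KO cells (adjusted p = 0.137). In WT cells the call of YTHDC1 was lost without WT Vehicle replicate 2 (adjusted p = 0.0515), 3 (0.0589) or 4 (0.0802) or WT GCN2iB replicate 2 (0.0632) or 3 (0.0676). With library totals as the scaling it was lost in both genotypes (adjusted p = 0.0818 in WT and 0.0751 in p53 KO cells). That of SAMTOR was lost without WT Vehicle replicate 1 (adjusted p = 0.175), 2 (0.0521) or 3 (0.0903) or any of WT GCN2iB replicates 1 to 4 (0.0546, 0.0522, 0.146 and 0.122).

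Methyltransferases that consume SAM on DNA, RNA and protein rose more often than they fell. Of 14 tested, 7 rose and 0 fell in WT (median 0.17), as without WT GCN2iB replicate 4, and 7 rose and 1 fell in p53 KO cells (median 0.28). Over all tested genes, 11.6% were called higher in WT and 11.4% in p53 KO cells. PRMT5, an arginine methyltransferase, rose by 0.75 ± 0.08 in WT (adjusted p = 6.94e-07) and by 0.53 ± 0.08 in p53 KO cells (adjusted p = 6.92e-05). PCMT1, which repairs aged protein residues, rose by 0.68 and 0.38, the histone methyltransferase EHMT2 by 0.38 and 0.38, and SUV39H1 by 0.35 and 0.50. EHMT2 was 1.37-fold lower in p53 KO than in WT cells under either treatment (adjusted p = 1.51e-05 and 1.52e-05; the latter comparison without WT GCN2iB replicate 4, log2 difference -0.51, adjusted p = 1.55e-05).

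The remaining lists are also read beside all tested genes, of which 25.2% were called in WT and 20.1% in p53 KO cells. Of 8 tested metabolic enzymes next to the cycle, 0 were called with GCN2iB in WT by edgeR and 1 in p53 KO cells. That gene was ADK, which removes the adenosine released by AHCY (0.20, adjusted p = 0.0475), a call lost in 12 of 18 alternatives, with adjusted p up to 0.197, among them each p53 KO library left out but Vehicle replicate 1. For methylthioadenosine salvage and polyamine synthesis, 1 of 9 rose and 2 fell in WT, and 2 rose and 1 fell in p53 KO cells. Of those 2 rises in p53 KO cells, 1 was lost in 12 of 18 alternatives. MTAP, which opens the salvage route, fell by 0.44 and 0.27 (the latter not called with GC and length trends removed, -0.16, adjusted p = 0.0561), and ENOPH1 rose by 0.24 and 0.34. For the use of cysteine, 2 of 10 fell and 0 rose in WT, and 1 fell and 1 rose in p53 KO cells. That rise was lost in 8 of 18 alternatives. GCLC, the catalytic subunit of the first enzyme of glutathione synthesis, fell by 0.26 and 0.29, the former not called without WT GCN2iB replicate 2 (adjusted p = 0.0705) or with GC and length trends removed (-0.15, adjusted p = 0.0662). Without WT GCN2iB replicate 4 the WT counts of these 3 lists were unchanged. All 10 genes of the ATF4 and amino acid response list fell in WT and 9 in p53 KO cells. CHAC1, a glutathione-degrading enzyme, fell 9.52-fold and 6.86-fold, and ATF4 went from 496.2 to 212.6 CPM in WT and from 504.1 to 284.3 in p53 KO cells.

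**Figure D4:**
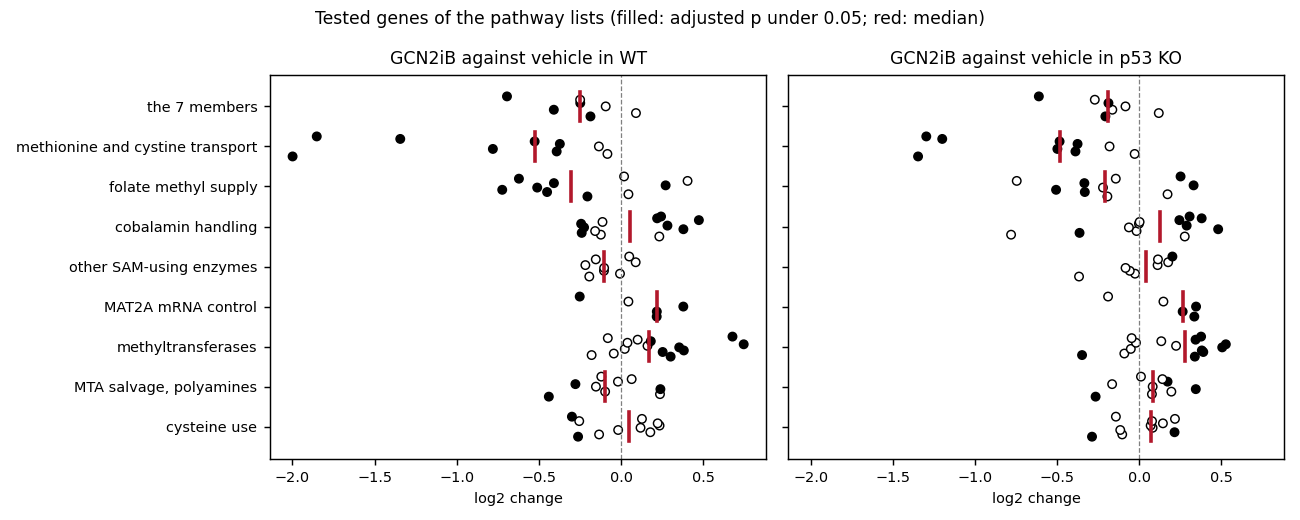
Log2 change with GCN2iB (horizontal axes) of the tested genes of the 7 members and of 8 related lists, in WT cells on the left and p53 KO cells on the right. Points are genes, filled where the adjusted p is under 0.05, and red bars are list medians. The carriers hold the lowest values (SLC7A5 at -1.999 in WT) and the filled points of the methyltransferases lie above 0 in WT.

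For the 3 members whose group means spanned at least 0.5 on the log2 scale, the genes with the most similar pattern were sought among 10160 genes with at least 5 CPM on average. Likeness was the root mean square difference of log2 CPM, centred on each gene's mean over the 16 libraries. The nearest to CTH were MTHFD2 (0.10), the copper importer SLC31A1 (0.10) and the tRNA synthetase EPRS1 (0.10), where the median over all candidates was 0.38. The nearest to AHCY were RPS6KA1 (0.05), PSD4 (0.06) and ADGRE5 (0.06), with a median of 0.26. CBS had no neighbour as close: PDCD4 was at 0.17 and DDX39B and CYP4V2 at 0.18, with a median of 0.32. These distances describe the 16 libraries, which the genes share.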

How the data were processed

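Total RNA of LNCaP cells was sequenced in paired ends, 16 libraries in 4 groups. The deposited table holds the authors' raw read counts per gene, not normalized. Per the submitters' processing notes the tools were HISAT2, featureCounts, Trim Galore and DESeq2, with build GRCh38. Versions, strand setting and annotation release: not given in the sources used here. Of the columns, 0 were left without a sample.

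Symbols came from RefSeq and positions and exon lengths from GENCODE release 29. Genes passing filterByExpr (18549 of 62754) were scaled by TMM and fitted with edgeR 4.0.16 (quasi-likelihood, robust, 1 term per group over 16 libraries) in R 4.3.3. Tests were two-sided with Benjamini-Hochberg adjustment over all tested genes in each of 6 contrasts, at a threshold of 0.05. CPM are edgeR's on scaled totals, and ± is the SD over 4 libraries for a level and the SE for a log2 change. Motifs were searched in RefSeq windows of GRCh38.p14 with Python 3.11.15. The fit was tested on simulated data.

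The 7 members and the 12 lists (108 genes) were chosen with earlier results of these data known. Named genes are the members, CDKN1A, EIF2AK4 and ATF4 as checks, CBSL, from each list up to 3 called genes with the smallest adjusted p per GCN2iB comparison and 2 per other comparison, and 3 neighbours by likeness. A gene so named is given in both genotypes. GGCX, FASTKD3 and SAMTOR were named after their values were seen. Alternatives were DESeq2 size factors, library totals, no count filter, a mean of at least 50 counts, DESeq2 1.42.0 and limma 3.58.1 voom tests, the compared groups alone, a replicate block, CBS and CBSL summed, each library left out, and replicate 4 of GCN2iB left out in both genotypes. Removal of GC and length trends was added after seeing the data. Some genes, the targeted one among them, are not reported here.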

Additional observations from a re-analysis of the deposited data

How the results depend on the processing

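Over 28 member results, 523 alternative values were computed, of which 477 kept direction and side of the threshold, 29 lost a call, 13 gained one and 4 changed sign. The sign changes were of uncalled values: MTR in WT with GC and length trends removed (0.0209), MTR in p53 KO cells with replicate 4 of GCN2iB left out in both genotypes (0.0210) or without p53 KO GCN2iB replicate 4 alone (-0.151 to 0.0217 over single libraries left out), and the difference between CTH responses with GC and length trends removed (-0.0146). The cause was not tested. The number of members called with GCN2iB in p53 KO cells was 5 instead of 3 with GC and length trends removed (AHCY and MAT2B in addition). For p53 KO against WT under GCN2iB it was 0 instead of 1 with no count filter and with replicate 4 of GCN2iB left out in both genotypes, and between 0 and 1 with single libraries left out. With no count filter 39509 genes were tested instead of 18549. Over all tested genes, the number called for the difference between both responses was 1, against 61 with the replicate block, 39 by DESeq2 and 47 with no count filter. It was 19 higher and 15 lower without WT GCN2iB replicate 1, and 3 higher and 7 lower without p53 KO GCN2iB replicate 4. Genes called lower in p53 KO cells with GCN2iB numbered 1615, against 2670 with library totals, 2447 with GC and length trends removed and 2437 with the replicate block. Those lower in WT numbered 2524, against 1668 without WT GCN2iB replicate 3, and those higher in p53 KO than in WT under GCN2iB 2356, against 1508 and 1495 without WT GCN2iB replicate 2 or 3. Same-numbered libraries of different groups had a median residual correlation of 0.09 over 24 pairs, of which 12 were above 0.1, against -0.04 for pairs with different numbers, and 11 of 16 libraries correlated best with their own number. This is a hint of pairing from the data. The numbers were not taken as pairs because the labels name no shared culture or day and not every same-numbered pair was above 0.1. With the replicate block the called members were those of the fit without it, apart from AHCY with GCN2iB in p53 KO cells, which was then called (-0.16, adjusted p = 0.0394). Depth limits CTH most among the members, at 208 to 729 counts per library.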
